A study of Homo sapiens with 2 samples.

Results

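The genes described here handle cellular iron: the uptake genes TFRC, STEAP3, SLC11A2 and LCN2, the storage genes FTH1, FTL and NCOA4, the exporter SLC40A1, and the regulators IREB2 and ACO1. They were taken by gene symbol, and all 10 were found among the 25268 symbols of the deposited tables. The cells were C4-2B MDVR, prostate cancer cells of LNCaP descent that grow after castration and were made resistant to the antiandrogen enzalutamide. One library came from cells given 20 µM Indocin and 1 from cells given the vehicle DMSO, both over 3 days and both in medium with 20 µM enzalutamide. Indocin is a trade name of indomethacin, which inhibits the cyclooxygenases and also AKR1C3, an enzyme that makes androgens. Each group had 1 library of a single resistant line. No difference could therefore be tested or given an error, and overlap between groups could not be judged.

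Cells take up iron as transferrin bound to the transferrin receptor, which carries it into endosomes. There a reductase of the STEAP family and the transporter SLC11A2 pass it into the cytosol. Iron that is not used is stored inside shells of ferritin heavy and light chains or leaves through ferroportin, the product of SLC40A1. When iron is scarce, the iron regulatory proteins made from ACO1 and IREB2 bind hairpins in messenger RNAs, the iron-responsive elements. Binding in the 5′ untranslated region blocks translation of the ferritins and ferroportin, and binding in the 3′ untranslated region protects the transferrin receptor mRNA from decay.

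The hairpins are shown because they are the sequences through which the regulatory proteins act on the ferritin, ferroportin and transferrin receptor mRNAs. They were searched in the protein-coding transcripts of GENCODE release 29 (GRCh38). The pattern was a window of 27 bases with the loop CAGTGN, an upper stem of 5 pairs, an unpaired C, and a lower stem of 5 positions with at least 4 pairs, G with T allowed. Only the strand of the transcript was read. Of 19669 protein-coding genes 29 held such a window, or 0.147%, and 4 of the 10 members were among them. FTH1, FTL and SLC40A1 held 1 each, in the 5′ untranslated region, and TFRC held 4, in the 3′ untranslated region. The 5 constant loop bases are in capitals below, and the other bases, in lower case, are the last loop base, the stems and the unpaired C, which is base 6 of each window.
FTH1 (chr11:61967575-61967601, minus strand): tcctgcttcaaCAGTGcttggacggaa
FTL (chr19:48965336-48965362, plus strand): tcttgcttcaaCAGTGtttggacggaa
SLC40A1 (chr2:189580662-189580688, minus strand): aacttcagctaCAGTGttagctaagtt
TFRC (chr3:196050980-196051006, minus strand): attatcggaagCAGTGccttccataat
TFRC (chr3:196050576-196050602, minus strand): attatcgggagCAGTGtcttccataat
TFRC (chr3:196050511-196050537, minus strand): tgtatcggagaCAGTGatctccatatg
TFRC (chr3:196050464-196050490, minus strand): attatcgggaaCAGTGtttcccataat
The ferritin windows shared 25 of 27 bases and differed by C3T and C17T, counted from 1 at the 5′ end of the FTH1 window. SLC11A2, which also has an mRNA form known to carry an element in its 3′ untranslated region, held no window of this form, and other forms of the element were not searched.

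Values are FPKM, in which fragment numbers are corrected for the length of the transcript and the size of the library, so that levels of different genes can be compared. The number of reads behind them is unknown. The log2 ratio is log2((Indocin FPKM + 1)/(DMSO FPKM + 1)), which understates the change of genes with low values. A gene counted as measured when its mean over the 2 libraries reached 1 FPKM, which took in 11965 genes and all 10 members. The median log2 ratio was -0.01 over the members and -0.02 over all measured genes. All 10 markers of luminal prostate cells (KLK2, KLK3 and others) stood at 58.1 to 362.3 FPKM in the Indocin library and at 61.4 to 520.3 FPKM in the DMSO library. Of the 4 erythroid markers, of a cell type with its own iron genes, none exceeded 0.0776 FPKM in the Indocin library or 0.0781 FPKM in the DMSO library. Basal markers summed to 0.352 FPKM in the Indocin library and 0.545 FPKM in the DMSO library. Neuroendocrine markers, nearly all of it ENO2, summed to 32.4 FPKM in the Indocin library and 33.7 FPKM in the DMSO library. Fibroblast markers, all of it COL1A1, summed to 4.80 FPKM in the Indocin library and 4.54 FPKM in the DMSO library.

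The members differed between the libraries gene by gene, some higher, some lower and some level. In bulk RNA fewer cells with an mRNA and less of it per cell cannot be told apart. LCN2 was 3.00 times as high in the Indocin library in FPKM, ferritin heavy chain 1.49 times as high, and TFRC and STEAP3 were 0.789 and 0.785 times as high. FTL, NCOA4, SLC40A1 and IREB2 differed by less than 4% in FPKM. One member, LCN2, was higher in the Indocin library by 1.5-fold or more on the log2(FPKM + 1) scale, as were 2.19% of all measured genes. None was lower by as much, against 0.744% of all measured genes.

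**Figure D1:**
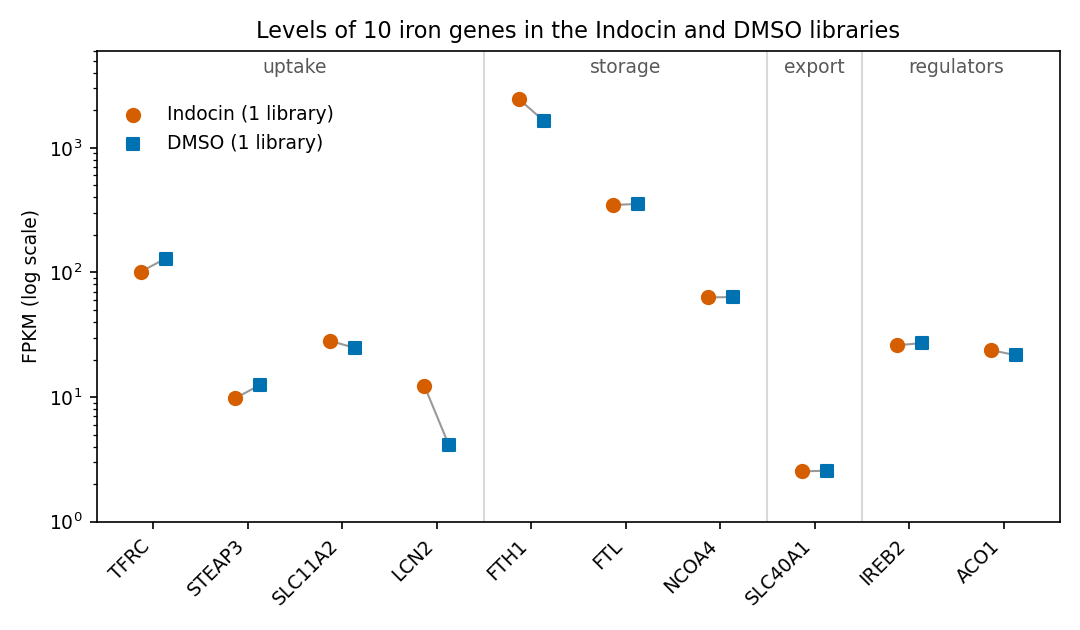
FPKM (log scale) of the 10 iron genes in the Indocin library (circles) and the DMSO library (squares), 1 library each, grouped by role. FTH1 stands highest in both libraries, SLC40A1 lowest, and the widest gap is that of LCN2, at 12.3 FPKM in the Indocin library and 4.09 FPKM in the DMSO library.

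Among the uptake genes, TFRC, the transferrin receptor, stood at 101.7 FPKM in the Indocin library and 128.9 FPKM in the DMSO library (log2 ratio -0.34). The Indocin library was the lower one, and 771 of all measured genes had a lower ratio than TFRC. Of the 500 measured genes nearest to it in mean FPKM, 35 had a lower ratio. STEAP3, an endosomal ferric reductase, stood at 9.81 FPKM in the Indocin library and 12.5 FPKM in the DMSO library (-0.32). Both receptor and reductase were thus lower in the Indocin library, by similar ratios. At a milder limit, a ratio of 5 to 4 on the same scale, TFRC was the only member counted as lower, with STEAP3 just short of it, and so were 7.29% of all measured genes.

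SLC11A2, the divalent metal transporter DMT1, stood at 28.3 FPKM in the Indocin library and 24.8 FPKM in the DMSO library (0.18). It lay on the other side of 0 from TFRC and STEAP3, although it works in the same endosomal route. LCN2, lipocalin 2, is a secreted protein that binds iron-loaded siderophores and is otherwise known as an acute-phase and innate immune protein. It stood at 12.3 FPKM in the Indocin library and 4.09 FPKM in the DMSO library (1.38). Of all measured genes 45 had a higher ratio than LCN2, and of the 500 nearest in mean FPKM 499 had a lower one. Leukocytes also express LCN2, and of 5 leukocyte markers CD68 alone exceeded 1 FPKM, at 5.86 FPKM in the Indocin library and 6.51 FPKM in the DMSO library. The 5 summed to 6.36 FPKM in the Indocin library and 7.28 FPKM in the DMSO library, and CD3E was listed at 0 in both. By level LCN2 ranked 5984 among the 23224 symbols that are not of short RNAs in the Indocin library and 9383 in the DMSO library. SLC22A17, which encodes a receptor reported for lipocalin 2, stood at 11.6 FPKM in the Indocin library and 11.5 FPKM in the DMSO library (0.02), and was named after its value was seen.

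**Figure D2:**
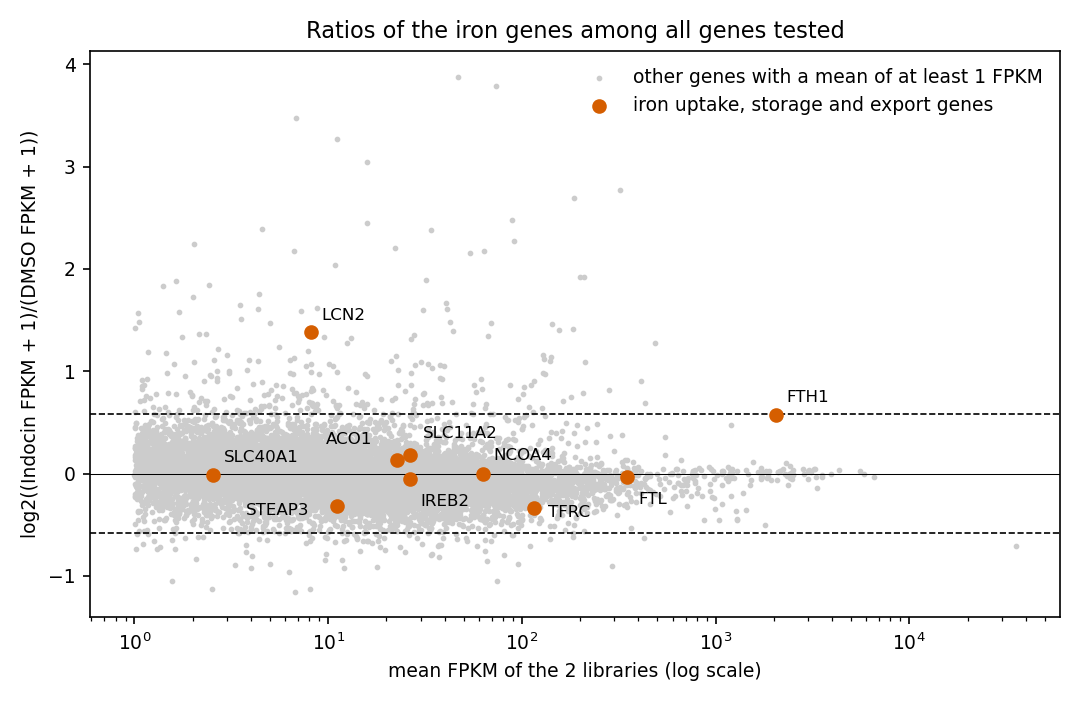
Log2 ratio of each measured gene (Indocin over DMSO, log2(FPKM + 1) scale) against its mean FPKM in the 2 libraries (log scale), with the 10 iron genes in colour and dashed lines at 1.5-fold. LCN2 lies above the upper line at 1.38, FTH1 lies just under it at 0.58 among the most abundant mRNAs, and TFRC (-0.34) and STEAP3 (-0.32) lie below 0 inside the lines.

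Among the storage genes the ferritin chains parted. FTH1, the heavy chain, which carries the ferroxidase activity that oxidises iron for storage, stood at 2458 FPKM in the Indocin library and 1649.8 FPKM in the DMSO library (0.58). It was the most abundant member, ranking 24 among the same symbols in the Indocin library and 50 in the DMSO library. At the limit of 5 to 4, FTH1 and LCN2 were counted as higher, with 6.91% of all measured genes. FTH1 lay just short of 1.5-fold, its log2 ratio being 0.575 and the limit 0.585. FTH1 was past 1.5-fold under each rescaling of the libraries, at 0.60 with ratios centred on their median, 0.65 with the same upper quartile, 0.66 with the same sum and 0.62 with the same sum less the noncoding RNA BCYRN1. Of all measured genes 273 had a higher ratio than FTH1, and of the 500 nearest to it in mean FPKM 13 had a higher one. Those 500 had means from 163.8 to 6538 FPKM, around 2054 FPKM for FTH1, and so are not a close match in level. Among the 81 measured genes whose mean reached 1000 FPKM, a limit chosen after the values were seen, no other ratio was as high. The next was that of the ribosomal protein gene RPL21 (0.48), and their quartiles were -0.05 and 0.02.

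FTL, the light chain, which promotes formation of the mineral core, stood at 347.2 FPKM in the Indocin library and 354.7 FPKM in the DMSO library (-0.03). The heavy chain mRNA was thus 7.08 times as abundant as the light chain mRNA in the Indocin library and 4.65 times in the DMSO library, in FPKM. No scaling of a whole library changes these ratios within a library, which differed by 1.52-fold. The mRNAs share the hairpin form printed above in their 5′ untranslated regions. Ferritin genes have many processed copies in the genome, with 25 FTH1P and 16 FTLP genes in the GRCh38 annotation. How reads that match several copies were assigned is not given in the sources used here, so the ferritin values are uncertain to that extent. The files list 3 such copies: FTH1P3 at 0.234 FPKM in the Indocin library and 0.0996 FPKM in the DMSO library, and FTH1P18 and FTLP10 at 0 in both.

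NCOA4, the cargo receptor that brings ferritin to lysosomes for iron release, stood at 63.0 FPKM in the Indocin library and 63.4 FPKM in the DMSO library (-0.01). SLC40A1, ferroportin, the iron exporter, was the lowest member in both libraries, at 2.54 FPKM in the Indocin library and 2.56 FPKM in the DMSO library (-0.01). Both were nearly level. The signs of FTL, NCOA4 and SLC40A1 turned positive once the libraries were brought to 1 upper quartile or to 1 sum, so these 3 genes have no direction. FTH1 was 24.2 times as abundant as TFRC in the Indocin library and 12.8 times in the DMSO library, in FPKM. These abundance ratios differed by 1.89-fold between the libraries. The pair joins the storage gene with the highest log2 ratio and the uptake gene with the lowest. The abundance ratio of TFRC to NCOA4 was 0.793 times as high in the Indocin library as in the DMSO library, and that of IREB2 to ACO1 0.876 times.

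The regulator genes differed little. IREB2, which encodes iron regulatory protein 2, degraded when iron is plentiful, stood at 26.0 FPKM in the Indocin library and 27.1 FPKM in the DMSO library (-0.05). ACO1, which encodes the cytosolic aconitase that becomes iron regulatory protein 1 on loss of its iron-sulfur cluster, stood at 23.8 FPKM in the Indocin library and 21.7 FPKM in the DMSO library (0.13). IREB2 turned positive with the same upper quartile (0.02) and the same sum (0.02). ACO1 ranged from 0.11 to 0.21 over the alternatives, none of which could have turned its sign. These mRNA levels say nothing of the RNA-binding activity of either protein, which is set after translation.

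The order of the members by level was the same in both libraries for the 4 highest, FTH1, FTL, TFRC and NCOA4, and for the lowest, SLC40A1. SLC11A2 stood above IREB2 in the Indocin library and below it in the DMSO library, and LCN2 likewise passed STEAP3. FTH1 alone made up 0.422% of the summed FPKM in the Indocin library and 0.267% in the DMSO library. The other 9 members together summed to 614.6 FPKM in the Indocin library and 639.7 FPKM in the DMSO library.

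**Figure D3:**
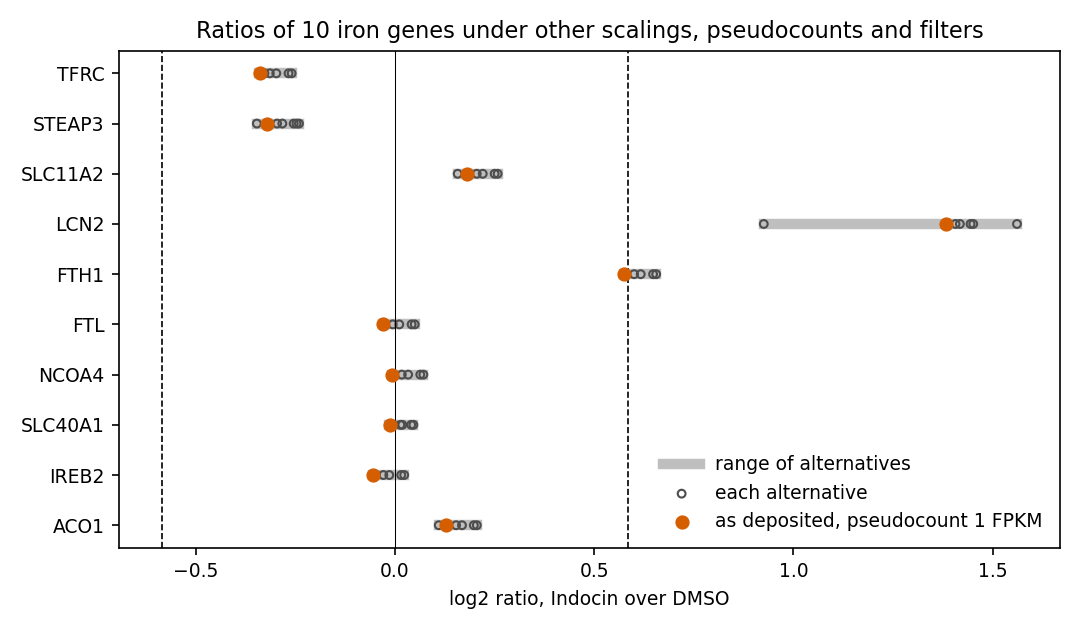
Log2 ratio (Indocin over DMSO) of the 10 iron genes as deposited with a pseudocount of 1 FPKM (filled points), and under other pseudocounts, filters and library scalings (open points, with their range as a bar); dashed lines mark 1.5-fold. LCN2 stays past 1.5-fold between 0.93 and 1.56, FTH1 lies on either side of the line between 0.57 and 0.66, and TFRC stays between -0.34 and -0.26.

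A further 81 genes of iron handling, listed by role from general knowledge, gave the surroundings of the members. Of these 67 were measured. HMOX1 and CDC14A were higher in the Indocin library by 1.5-fold or more, and none was lower by as much, so that 2.99% of the 67 were counted as higher. These shares were near those of all measured genes, 2.19% higher and 0.744% lower. The median log2 ratio of the 67 was -0.02, the same as over all measured genes.

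Of 12 other uptake genes 9 were measured and none differed by 1.5-fold. The metal transporter SLC39A14, which carries iron not bound to transferrin, stood at 63.1 FPKM in the Indocin library and 49.9 FPKM in the DMSO library (0.33). Its relative SLC39A8 stood at 33.1 FPKM in the Indocin library and 41.5 FPKM in the DMSO library (-0.32), on the other side of 0. The metalloreductase STEAP4 stood at 10.96 FPKM in the Indocin library and 13.4 FPKM in the DMSO library (-0.26). STEAP1, a prostate surface protein of that family, was at 117.4 FPKM in the Indocin library and 129.7 FPKM in the DMSO library (-0.14). Transferrin itself, TF, was listed at 0.0189 FPKM in the Indocin library and 0.0280 FPKM in the DMSO library, under the minimum mean.

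Of 7 other genes of ferritin and iron chaperones 4 were measured. PCBP1, a chaperone that delivers iron to ferritin, stood at 140.7 FPKM in the Indocin library and 168.8 FPKM in the DMSO library (-0.26). Its paralog PCBP2 was at 211.8 FPKM in the Indocin library and 211.0 FPKM in the DMSO library (0.01), and PCBP4 had a log2 ratio of 0.04. HERC2, a ubiquitin ligase that degrades NCOA4, was at 6.23 FPKM in the Indocin library and 5.54 FPKM in the DMSO library (0.15). None of 7 genes of iron export and its hormonal control reached the minimum mean. The ferroxidase CP was highest among them at 0.699 FPKM in the Indocin library and 0.912 FPKM in the DMSO library, and HAMP, which encodes hepcidin, and HFE2 were listed at 0 in both.

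The ubiquitin ligase that removes IREB2 when iron is plentiful is built from SKP1, CUL1 and the iron-binding subunit FBXL5. FBXL5 stood at 15.4 FPKM in the Indocin library and 12.3 FPKM in the DMSO library (0.30). SKP1 (0.01) and CUL1 (-0.11) differed less. Of 5 further genes whose mRNAs are known to carry iron-responsive elements 4 were measured. CDC14A, a cell cycle phosphatase, stood at 4.75 FPKM in the Indocin library and 2.81 FPKM in the DMSO library (0.59), past 1.5-fold. Its log2 ratio was 0.32 with a pseudocount of 5 FPKM and so within 1.5-fold. EPAS1, which encodes the hypoxia factor HIF-2 alpha, was at 2.26 FPKM in the Indocin library and 3.23 FPKM in the DMSO library (-0.38). The kinase gene CDC42BPA had a log2 ratio of 0.32.

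All 29 genes of mitochondrial iron import and iron-sulfur cluster assembly were measured, and none differed by 1.5-fold. Of these 22 had log2 ratios below 0 and 7 above, with a median of -0.10. That was 75.9% below 0, against 55.2% of all measured genes. Once the libraries were brought to 1 upper quartile, 17 of 29 (58.6%) were below 0, against 41.2% of all measured genes. Brought to 1 sum, 17 were below 0, against 39.6% of all measured genes. The highest were HSPA9, a mitochondrial chaperone of cluster transfer (184.5 FPKM in the Indocin library and 137.7 FPKM in the DMSO library, 0.42), and ISCU, the assembly scaffold (63.8 FPKM in the Indocin library and 48.1 FPKM in the DMSO library, 0.40). The lowest were NDOR1, a reductase of the cytosolic assembly route (-0.35), and BOLA3, a mitochondrial assembly factor (-0.29).

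Of 18 heme genes 9 lay above 0 and 9 below, with a median of 0.01, against 44.8% of all measured genes above 0. Once the libraries were brought to 1 upper quartile, 12 of 18 (66.7%) lay above 0, against 58.8% of all measured genes. Brought to 1 sum, 12 lay above, against 60.4% of all measured genes, so the count moved with that of all genes. HMOX1, heme oxygenase, which frees iron from heme, stood at 42.6 FPKM in the Indocin library and 26.0 FPKM in the DMSO library (0.69). BLVRB, a biliverdin reductase of heme breakdown, stood at 178.1 FPKM in the Indocin library and 139.4 FPKM in the DMSO library (0.35). SLC48A1, a heme transporter of endosomes and lysosomes, was at 14.7 FPKM in the Indocin library and 10.4 FPKM in the DMSO library (0.46). ABCG2, a multidrug exporter that also carries heme and porphyrins, was lowest, at 0.980 FPKM in the Indocin library and 1.70 FPKM in the DMSO library (-0.45). ABCG2 was past 1.5-fold with a pseudocount of 0.1 FPKM (-0.74).

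**Figure D4:**
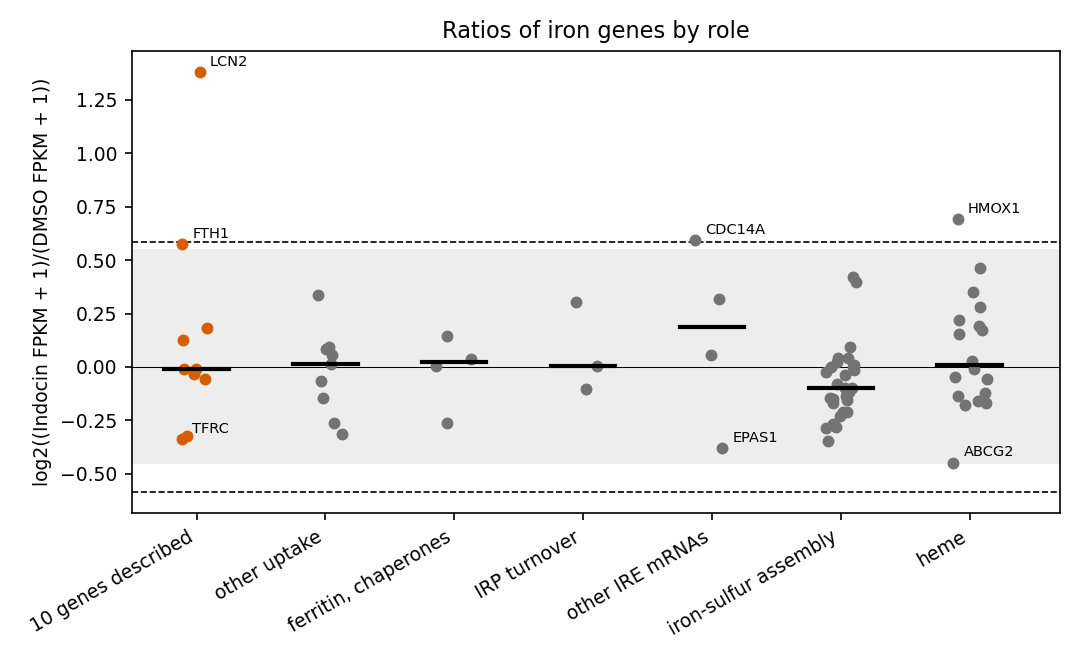
Log2 ratio (Indocin over DMSO, log2(FPKM + 1) scale) of the 10 iron genes (coloured) and of 67 further measured iron genes by role (grey), 1 point per gene, with the median of each list as a bar, dashed lines at 1.5-fold and the middle 95% of all measured genes shaded (-0.45 to 0.55). LCN2, CDC14A and HMOX1 lie above the upper line, FTH1 just under it, and most points of the iron-sulfur list lie below 0.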

How the data were processed

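The authors deposited 1 table of FPKM values per library, with gene symbol and status, per the file headers. The libraries were strand-specific mRNA libraries (KAPA kit) of TRIzol-extracted RNA, per the labels' protocols. Builds GRCh37 and hg19 and the tools TopHat, Cufflinks, Cuffnorm, StringTie and bcl2fastq appear in the submitters' processing notes. Tool roles, versions, the annotation and the treatment of multiply mapped reads were not given in the sources used here. Tests for counts do not suit FPKM and were not used, and the read depth is unknown. Among 1335 genes under a mean of 0.05 FPKM, 45.5% of library ratios came within 1% of a ratio of small whole numbers multiplied by 1.014. Of the factors tried, 1.014 gave the largest share, and the median share over the factors was 2.55%. A fragment thus had nearly equal worth in the 2 libraries.

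Log2 ratios (pseudocount 1 FPKM) were computed with numpy 2.4.6 and pandas 2.3.3, for genes whose mean reached 1 FPKM. The 2044 symbols of short RNA genes were left out. With 1 library per group nothing was tested, and counts past a fold are set beside those of all measured genes. The ratio and hairpin steps were run on simulated data with planted changes well past 1.5-fold and planted hairpins of the searched form. Those runs check the code only and tell nothing of genes near 1.5-fold or of other hairpin forms. The members and lists were chosen with earlier results of these data known. Of the listed iron genes, those past 1.5-fold and up to 4 per list with the largest ratios are named, with some unmeasured ones, and some genes of the lists are not reported here. Hairpins and their coordinates are from GENCODE, on another build than the files, and were joined by symbol only. Alternatives were other pseudocounts, filters, fold limits and library scalings.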

Additional observations from a re-analysis of the deposited data

How the results depend on the processing

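Each member's ratio was recomputed under 9 alternatives, except SLC40A1, which left the genes measured with a mean of at least 5 FPKM. LCN2 stayed past 1.5-fold in all 9, and TFRC, STEAP3, SLC11A2 and ACO1 kept their sign. The filters leave each gene's ratio as it is, and a pseudocount cannot change its sign. The rescalings all raised the ratios, so SLC11A2 and ACO1, already above 0, could not have changed sign. For TFRC and STEAP3 only the rescalings could have done so. For LCN2 only the pseudocount of 5 FPKM could have brought it within 1.5-fold. FTH1 passed 1.5-fold with ratios centred on the median (0.60), the same upper quartile (0.65), the same sum (0.66) and the same sum without the noncoding RNA BCYRN1 (0.62), the last chosen after seeing the data. In these 4 settings 2 members were at least 1.5-fold higher, against 2.40% to 2.70% of all measured genes. At the limit of 5 to 4, 2 members were higher and 1 lower, against 6.91% and 7.29% of all measured genes. Other iron genes counted as higher numbered 1 with a pseudocount of 5 FPKM (1.05% of all measured genes) and 1 with a mean of at least 5 FPKM (1.88%). They numbered 7 at 5 to 4, or 10.4% of 67, and 0 at 2-fold (0.752% of all measured genes). Other iron genes counted as lower numbered 1 with a pseudocount of 0.1 FPKM (1.57% of all measured genes) and 3 at 5 to 4, or 4.48% of 67. The member median turned positive in the same 4 settings, up to 0.06 with the same sum. The cause of each shift is the setting's own construction. Over all measured genes 262 were higher and 89 lower at 1.5-fold (74.6% higher), against 323 and 52 with the same sum (86.1%). Those counts were 420 and 188 with a pseudocount of 0.1 FPKM, and 126 and 36 with 5 FPKM. No paired analysis was possible because each group had 1 library. With the depth unknown, no counting interval could be given for any member.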

Other observations

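The hairpin search also found windows in genes with no part in the iron lists. In all, 18 protein-coding genes held one in an untranslated region, 7 of them in the 5′ and 11 in the 3′ untranslated region, and 13 of the 18 were measured. Of these 13 genes 1, CDC14A (0.59), was higher in the Indocin library by 1.5-fold or more and none lower by as much, against 2.19% and 0.744% of all measured genes, so counts of 1 and 0 do not set these genes apart. Their median log2 ratio was 0.02. FTH1 (0.58) came next. The lowest were SAPCD2, at 33.4 FPKM in the Indocin library and 45.5 FPKM in the DMSO library (-0.43), and TFRC (-0.34). The genes AGO3 (0.02), ADARB1 (-0.04) and TMEM132A (0.01) were nearly level. A window of this form is a match of letters, and whether the regulatory proteins bind these other mRNAs was not tested.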
